A study of Sus scrofa with 20 samples.

Results

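Clusterin (CLU) and the transcription factor FOXO3 were described in the hearts of 20 pigs after 4 protocols of coronary surgery. The members were all probe sets that the platform's probe table assigns to CLU or FOXO3 alone. There were 3 of them among 23999 probe sets tested, 1 for CLU and 2 for FOXO3, called here the brighter and the dimmer. Both genes were selected on their measured signal, which an earlier look at the same arrays had found lower in the SWOP group than in control, so that difference is given here as a description, with no test.

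Clusterin is a secreted chaperone, also called apolipoprotein J, that binds unfolded proteins outside cells, keeps the complement attack complex from inserting into membranes and is taken up through receptors of the lipoprotein receptor family. FOXO3 is a forkhead transcription factor. Insulin and growth factor signalling through the kinase AKT phosphorylates it, and 14-3-3 proteins then hold it in the cytoplasm. In its absence from the nucleus the targets it activates, which include ubiquitin ligases of muscle atrophy, antioxidant enzymes and autophagy genes, are less transcribed.

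All animals were female and each gave 1 heart sample and 1 array of the 1-colour Affymetrix porcine type, in 4 groups of 5. Control pigs had a sham operation. SWOP pigs, named for the second window of preconditioning, had the coronary artery occluded for 10 min in 2 cycles with 10 min of reperfusion after each, and were sampled after 24 h of reperfusion. RCO pigs received that stimulus in 6 sessions set 12 h apart, and RCS pigs had 90 min of low-flow ischemia in 6 sessions at the same interval. The sources used here do not give strain, age, the part of the heart sampled, or how long after the last session RCO and RCS hearts were taken. The series title sets preconditioning by chronic ischemia against the classical second window.

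Values are deposited log2 signals, so a difference of 1 is a 2-fold change in signal, and array medians lay between 6.75 and 6.82. The spread of signals differed more. The interquartile range was 3.04 to 3.16 on control arrays, below all SWOP (3.26 to 3.30) and RCS arrays (3.27 to 3.44), and 3.05 to 3.32 in RCO. Quantile normalization, which evens out this spread, was run as an alternative. Of 16 cardiomyocyte markers 14 were on the array, none of them dim, dim being a mean below the 30th percentile of all probe sets (log2 5.48). The endothelial, smooth muscle, fibroblast, macrophage, lymphocyte and red blood cell lists held no dim marker either, so this alone does not identify the tissue. Arrays within RCO correlated at 0.959 to 0.990, and those within each other group at 0.985 to 0.996. The mean of 18 spike-in spots was 11.05 on RCO replicate 1 and 10.87 on SWOP replicate 1, and 10.48 to 10.60 on the other RCO arrays. It was 10.53 to 10.60 in control, and all 5 RCS arrays (10.18 to 10.40) and the other 4 SWOP arrays lay below every control array. The part of this difference in the calls was not tested. The signal at the 3′ end of the actin control transcript exceeded that at its 5′ end by 0.51 to 0.73 in RCS and by 1.24 to 1.96 in control. In a bulk heart sample, fewer cells of a type and less RNA per cell cannot be told apart.

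CLU was lowest in SWOP and stood near the control level in RCO and RCS. The control arrays read 12.56, 12.13, 12.60, 12.21 and 12.43 for replicates 1 to 5. The SWOP arrays read 11.27, 9.92, 10.96, 11.36 and 10.91. All 5 SWOP arrays lay below every control array, and the lowest value of all belonged to SWOP replicate 2. The group means were 12.39 ± 0.21 in control and 10.88 ± 0.57 in SWOP (SD, n = 5 each), a difference of −1.50 ± 0.28 (log2, SE), or 2.83-fold lower signal in SWOP. This is the difference that chose the gene. It ranged from −1.62 to −1.26 when single arrays were left out.

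**Figure D1:**
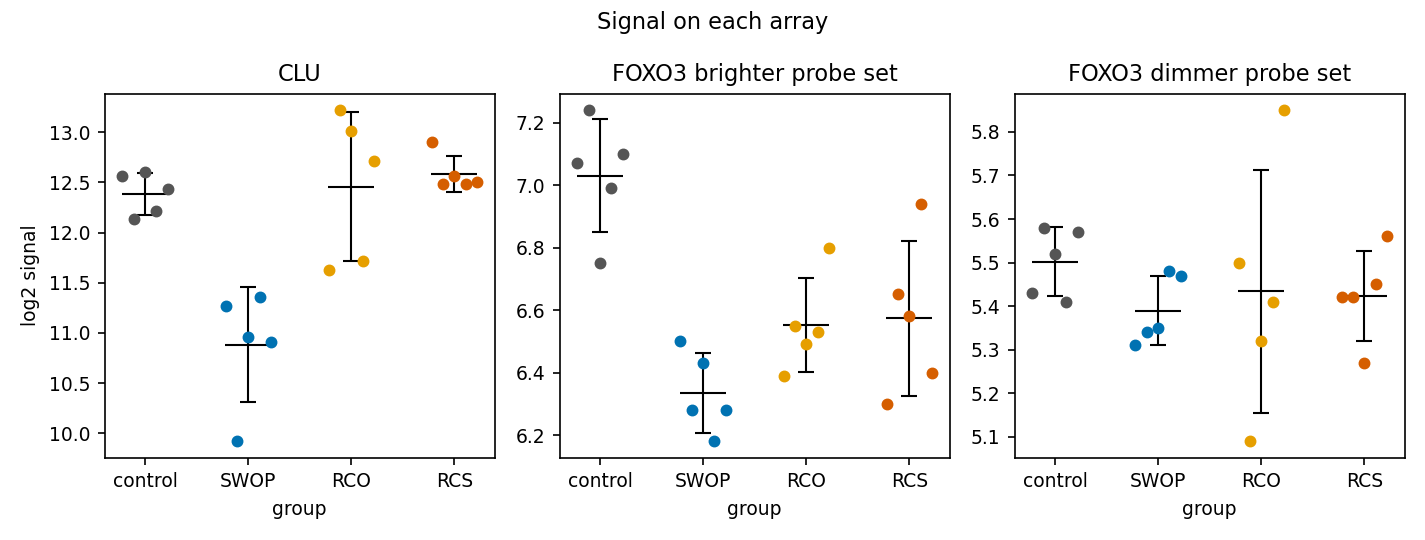
Log2 signal (vertical axis) of CLU and of both FOXO3 probe sets on each array, by group (horizontal axis); points are arrays in replicate order, horizontal marks are group means and bars are 1 SD (n = 5). CLU is low in all 5 SWOP arrays and spread from 11.63 to 13.22 in RCO, while the brighter FOXO3 probe set is highest in control.

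In RCO, CLU read 11.63, 13.22, 13.01, 11.72 and 12.71 for replicates 1 to 5. Replicates 2, 3 and 5 were above every control array and replicates 1 and 4 below every control array, so RCO held the widest spread of the 4 groups for this gene (SD 0.74, against 0.21 in control and 0.18 in RCS). All 5 RCO arrays nevertheless exceeded every SWOP array. In RCS, CLU read 12.90, 12.48, 12.56, 12.48 and 12.50, a narrow band whose replicate 1 stood above the rest.

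The order of CLU group means was SWOP at 10.88, control at 12.39, RCO at 12.46 and RCS at 12.58. The upper 3 means did not differ beyond their spread. RCO minus control was 0.07 ± 0.28 (SE; limma adjusted p = 0.90) with a 95% interval from −0.51 to 0.65. RCS minus control was 0.20 ± 0.28 (limma adjusted p = 0.58), with an interval from −0.38 to 0.78. Both share the control arrays with the contrast that chose the gene, so these p-values are not independent of the choice. RCS minus RCO uses no array of that contrast and was 0.13 ± 0.28 (limma adjusted p = 0.78), with an interval from −0.46 to 0.71. The interval leaves room for a difference about as large as the SD within RCO.

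The level of CLU in RCO rested on which animals were included. Without replicate 1 or replicate 4 alone, RCO minus control was 0.28 or 0.26 (limma adjusted p = 0.51 or 0.59). Without RCO replicates 2 and 3 together, which on earlier results of these data lay among the RCS arrays, RCO minus control turned to −0.37 (adjusted p = 0.48) and RCS minus RCO became 0.56 (adjusted p = 0.10). Replicates 2 and 3 had the highest CLU of the group (13.22 and 13.01), so the direction of both shifts was fixed by their removal. The summed signal of 5 macrophage markers of 8 was 12.44 and 11.53 (log2) on those arrays and 10.47 to 10.84 on the other RCO arrays, and that of 6 fibroblast markers of 8 was 14.36 on each of them against 13.06 to 13.59. No measured macrophage or fibroblast marker was dim. Replicate 5, where CLU was 12.71, had the lowest macrophage value of the group. The part of these cell types in the CLU level was not tested.

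As a description, CLU was higher in RCO than in SWOP by 1.57 ± 0.28 (SE) and in RCS than in SWOP by 1.70 ± 0.28, with no overlap of arrays in either case. The SWOP arrays chose the gene, so these differences carry no test. The summed signal of cardiomyocyte markers was 18.01 to 18.10 in SWOP and 18.06 to 18.12 in control, and that of macrophage markers 9.93 to 10.68 against 9.87 to 10.51, so both ranges overlapped. Among the marker lists of other cell types, skeletal muscle isoforms had 1 member higher in SWOP, adipocyte and mesothelial markers 1 lower each, and endothelial, fibroblast, macrophage, neutrophil, lymphocyte and red blood cell markers had 0 called by limma (3 fibroblast markers, and none of the other 5 lists, at an unadjusted p below 0.05). The 4 of 6 smooth muscle markers on the array, none of them dim, summed to 13.75 to 14.23 in SWOP, above the control range of 13.16 to 13.74, and 2 of them rose: CNN1, and desmin (DES), which cardiomyocytes also make. The part of smooth muscle cells in the CLU level was not tested.

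FOXO3, unlike CLU, had its highest level in control and lower levels after all 3 protocols on its brighter probe set. The control arrays read 7.07, 7.24, 6.75, 6.99 and 7.10. The SWOP arrays read 6.50, 6.28, 6.43, 6.18 and 6.28, all below every control array. The means were 7.03 ± 0.18 and 6.33 ± 0.13 (SD, n = 5 each), a difference of −0.70 ± 0.11 (log2, SE), or 1.62-fold lower signal. As for CLU, this difference chose the gene and is not tested here.

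In RCO the brighter FOXO3 probe set read 6.39, 6.55, 6.49, 6.53 and 6.80, and 4 of 5 arrays were below every control array. It fell by 0.48 ± 0.11 against control (SE; limma adjusted p = 0.012), 1.39-fold. In that comparison 4.81% of all probe sets tested were called lower and 5.9% higher, a call being an adjusted p below 0.05. In RCS it read 6.30, 6.65, 6.58, 6.94 and 6.40, again with 4 of 5 arrays below every control array, replicate 4 being the exception. It fell by 0.46 ± 0.11 (limma adjusted p = 0.0031), 1.37-fold, in a comparison where 28.2% of probe sets were called lower and 19.3% higher. A lower call in RCS is therefore common on these arrays. The control arrays are again those that chose the gene, and the lower level in both groups is in part a statement about the same 5 controls.

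The call in RCO was lost without RCO replicates 2 and 3 (−0.46, adjusted p = 0.060), where the difference itself hardly moved. It held when any single array was left out, with differences of −0.55 to −0.43. The order of means was SWOP at 6.33, RCO at 6.55, RCS at 6.57 and control at 7.03. RCS minus RCO was 0.02 ± 0.11 (limma adjusted p = 0.91, 95% interval −0.21 to 0.26), from arrays that had no part in the choice of the gene. The step from SWOP to RCO was 0.22 ± 0.11 and that from SWOP to RCS 0.24 ± 0.11 (SE), with overlapping arrays and no test.

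**Figure D2:**
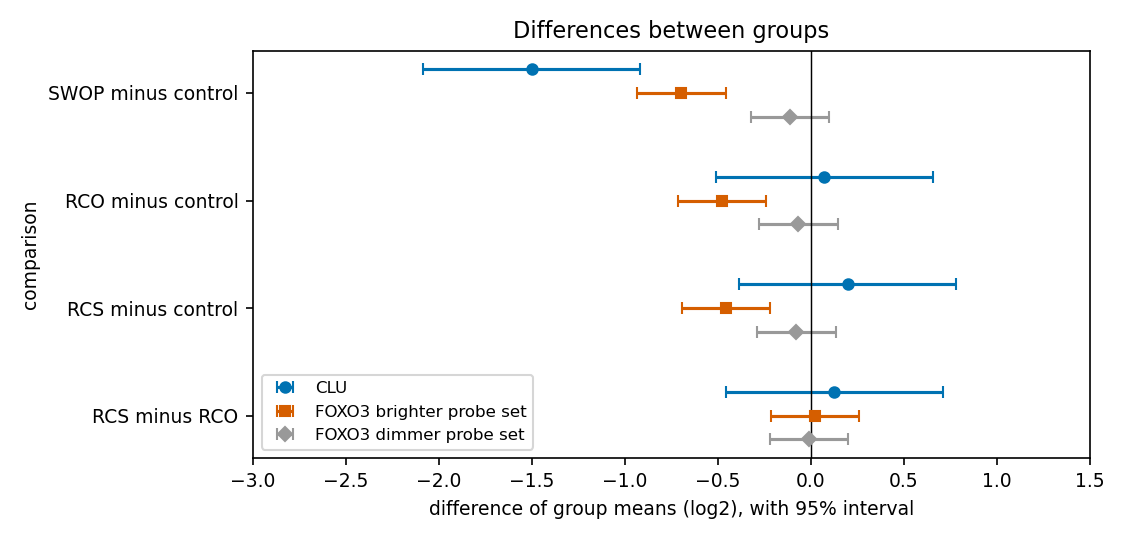
Differences of group means in log2 signal (horizontal axis, first group minus second) for the 3 probe sets in 4 comparisons (vertical axis); points are estimates and bars 95% intervals from limma. The SWOP minus control differences chose both genes, so their intervals are descriptive and give no test. CLU stands at −1.50 there, and its intervals in the other comparisons span 0. The brighter FOXO3 probe set is also below 0 in RCO and RCS minus control, which share the control arrays with that choice.

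The dimmer FOXO3 probe set did not show this pattern. Control arrays read 5.41 to 5.58, SWOP arrays 5.31 to 5.48, RCO arrays 5.09 to 5.85 and RCS arrays 5.27 to 5.56, and its mean signal ranked at the 29.5th percentile of all probe sets, against the 46.9th for the brighter and the 98.5th for CLU. It lay below the dim limit on 2, 4, 3 and 4 of the 5 arrays of control, SWOP, RCO and RCS. Its difference in SWOP was −0.11 ± 0.10 (SE), of the same sign as the brighter probe set, but −0.014 after quantile normalization. In RCO and RCS it was −0.07 ± 0.10 and −0.08 ± 0.10 (limma adjusted p = 0.71 and 0.54), and RCS minus RCO was −0.01 ± 0.10 (adjusted p = 0.95). Over the alternatives the RCO and RCS differences changed sign, with ranges of −0.17 to 0.085 and −0.11 to 0.044. The FOXO3 result thus stands on 1 probe set of 2. With both averaged into 1 value the difference in SWOP was −0.40.

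Whether animals with low CLU also had low FOXO3 was examined on the deviations of each array from its group mean, which the choice of the genes did not use. Over 20 arrays, Pearson's r between CLU and the brighter FOXO3 probe set was 0.0078 (permutation p = 0.97) and Spearman's rho −0.074 (permutation p = 0.76). It was −0.20 without SWOP replicate 2 and RCO replicate 1, the arrays farthest from the median of CLU, and −0.16 after leaving out RCO replicate 1 and SWOP replicate 1 for their spike-in level. The FOXO3 probe sets correlated with each other at r = 0.15 (permutation p = 0.52) and rho = −0.035 (p = 0.89), and at r = 0.18 without the 2 farthest arrays. CLU and the dimmer FOXO3 probe set gave r = −0.18 (permutation p = 0.68), rho = −0.16 (p = 0.56) and r = −0.24 without the 2 farthest. Adjusted over these 3 relations, p was 0.97 for each r and 0.89 for each rho. Within groups, then, no relation between the levels was detectable with 20 animals.

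**Figure D3:**
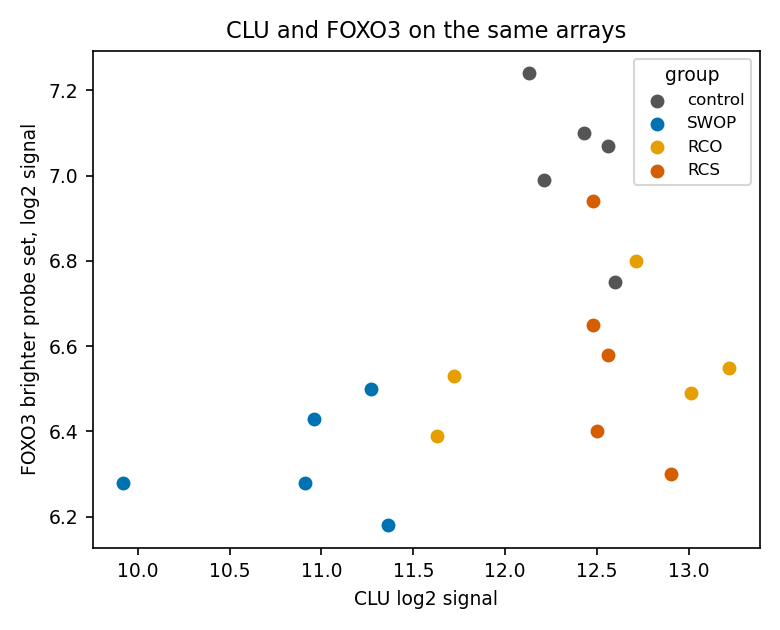
CLU log2 signal (horizontal axis) against log2 signal of the brighter FOXO3 probe set (vertical axis), 1 point per array, coloured by group. SWOP arrays lie at the lower left, control arrays at the upper right, and 6 of the 10 RCO and RCS arrays combine control-like or higher CLU with FOXO3 below every control array. The others are RCO replicates 1 and 4, lower in CLU at 11.63 and 11.72, and RCO replicate 5 and RCS replicate 4, within the control range of FOXO3 at 6.80 and 6.94.

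The genes whose pattern was most like each member were sought among 5767 named genes that were not dim, by Pearson's r over the 20 arrays. These values describe likeness only, and the arrays share their groups. For CLU the highest were APPBP2 (r = 0.82), MOSPD2 (0.80), the interleukin receptor subunit IL10RB (0.78), the cytidine deaminase CDA (0.77), AGTRAP, a protein that binds the angiotensin receptor (0.77), and PRKAA1, a catalytic subunit of the energy sensor AMPK (0.76). The r of their deviations from group means was 0.53 to 0.67. CLU had the wider range: APPBP2 was 0.24 lower in SWOP than in control and PRKAA1 0.43 lower. The opposite pattern, highest in SWOP, was clearest in OXNAD1 (r = −0.86), SYN1 (−0.84), the kinase CDK16 (−0.84) and ST6GALNAC4 (−0.84).

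For the brighter FOXO3 probe set the most alike were RIN3 (r = 0.85), CAPN10, a calpain protease (0.85), the lipid transfer protein MTTP (0.84), GPAM, which starts glycerolipid synthesis (0.83), SERGEF (0.82) and LRCH4 (0.81). Their deviations from group means correlated with those of FOXO3 at 0.40 to 0.73. The most opposite were the mitochondrial protein CHCHD2 (r = −0.88), ARMT1 (−0.86), the cell cycle phosphatase CDKN3 (−0.84) and MBIP (−0.84). CDKN3 averaged 7.32 in control, against 8.21 in SWOP, 7.92 in RCO and 7.99 in RCS. No gene stood on the lists of both members.

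Of 35 genes that belong to the FOXO family or act upstream of it, 20 were measured. In SWOP, where 3.01% of all probe sets were called higher and 4.14% lower, 1 of the 20 rose and 0 fell (2 lower at an unadjusted limma p below 0.05). That gene was the kinase AKT1, at 0.45 ± 0.11 (SE; limma adjusted p = 0.025), and its other probe set was called in the opposite direction (−0.41), so no direction can be given for AKT1. Leaving out control replicate 2 or 4, or SWOP replicate 2, 4 or 5, also ended the call. FOXO1, the other measured member of the family, had a control mean of 8.79 ± 0.10 and means of 8.82 ± 0.17 (SWOP), 8.63 ± 0.09 (RCO) and 8.78 ± 0.10 (RCS, SD, n = 5 each), and was called in none of the 4 comparisons. In RCO, 1 of 20 (5%) fell and 0 rose (2 higher at an unadjusted p below 0.05), against 4.26% and 11.3% of all genes. The 1 that fell was IGF1R, the receptor for insulin-like growth factor, by 0.85 ± 0.16 (limma adjusted p = 0.0030), with its other probe set also called lower.

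In RCS 4 of the 20 rose and 4 fell, that is 20% each way, against 28.8% of all 6765 genes called higher and 25.7% called lower. Of those that fell, IRS1 and SKP2 were dim (mean log2 5.42 and 4.30). Markers of other cell types moved in the same arrays. The summed signal of macrophage markers was 11.16 to 11.79 in RCS against 9.87 to 10.51 in control, and that of fibroblast markers 13.84 to 14.74 against 12.58 to 13.59, with no overlap in either. Of those measured, 3 of 5 macrophage and 4 of 6 fibroblast markers rose and 0 fell (limma adjusted p below 0.05). Their part in the levels of the listed genes was not tested. The 14-3-3 protein YWHAB rose by 0.46 ± 0.08 (SE; limma adjusted p = 0.00024) and SGK1, a kinase that phosphorylates FOXO3, by 1.08 ± 0.28 (adjusted p = 0.0037). YWHAQ, another 14-3-3 protein, rose by 0.81 ± 0.13 on its brighter probe set (adjusted p = 9.4e-05), while its other probe set was at −0.09. PRKAA2, the second catalytic subunit of AMPK, fell by 0.71 ± 0.14 (adjusted p = 0.00048).

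Of 45 known FOXO targets, 31 were measured. The list does not separate targets that FOXO proteins activate from those they repress, such as D-type cyclins. Its counts of rises and falls therefore give no direction of FOXO activity. In SWOP, where 4.66% of all genes were called higher and 3.50% lower, 0 targets rose (1 at an unadjusted limma p below 0.05) and 2 (6.45%) fell: CCND2, a D-type cyclin, by 0.57 ± 0.13 (SE; limma adjusted p = 0.018) and PCK1, of gluconeogenesis, by 0.28 ± 0.08 (adjusted p = 0.047). CCND2 was at an adjusted p of 0.052 without SWOP replicate 4 and 0.051 without replicate 5, and the PCK1 call was lost in 16 of 27 alternatives. The largest difference, chosen after its value was seen, was that of PDK4, a brake on pyruvate oxidation, at 10.07 ± 1.80 in control and 8.19 ± 0.60 in SWOP (SD, n = 5). It did not pass (difference −1.88, limma adjusted p = 0.071), but passed with array weights and without control replicate 1, when it was −2.58 (adjusted p = 0.013; 0.013 to 0.18 over all alternatives). FBXO32, the atrophy ubiquitin ligase atrogin-1, was 11.16 ± 0.55 in control and 11.00 ± 0.32 in SWOP and did not pass.

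In RCO 10 of the 31 targets fell and 0 rose (3 higher at an unadjusted limma p below 0.05). The transcriptional regulator CITED2 fell by 1.15 ± 0.15 (SE; limma adjusted p = 0.00028), catalase, CAT, by 0.76 ± 0.11 (adjusted p = 0.00076), CCND2 by 0.88 ± 0.13 (adjusted p = 0.00081), PINK1, a kinase of mitochondrial quality control, by 0.95 ± 0.16 (adjusted p = 0.0018), and lipoprotein lipase, LPL, by 0.98 ± 0.18 (adjusted p = 0.0030). These 5 kept their calls in every alternative run. Over the 6765 genes 4.26% were called lower and 11.3% higher. The list median was −0.24 against 0.01. Without RCO replicates 2 and 3 the count called was 6, and with only both groups in the fit 5.

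In RCS 16 targets fell and 5 rose, against 25.7% of genes called lower and 28.8% called higher. Of those that fell, TNFSF10 and FASLG were dim (mean log2 5.34 and 4.2). CITED2 stood at −1.33 ± 0.15 (SE), PINK1 at −1.32 ± 0.16, CAT at −0.91 ± 0.11, LPL at −1.10 ± 0.18 and CCND2 at −0.87 ± 0.13 (limma adjusted p from 2.8e-06 to 0.00011). The 5 that rose, named here after their values were seen, were BNIP3L, GABARAP, MAP1LC3B and ATG12, which act in autophagy, and the cell cycle inhibitor CDKN1A. Of these BNIP3L, at 0.53 ± 0.14 (adjusted p = 0.0054), kept its call in every alternative, and MAP1LC3B had a second probe set called lower. Of the 14 cardiomyocyte markers 12 also fell in RCS, with summed signals of 17.52 to 17.88 against 18.06 to 18.12 in control, and 2 fell in RCO (17.83 to 17.99). The part of cardiomyocyte RNA in the targets' levels was not tested. RCS and RCO share the control arrays. Between them, where 8.75% of probe sets were called higher and 10.3% lower, 3 of 31 targets were lower in RCS and 0 higher (2 higher at an unadjusted p below 0.05): BCL2L11, PRDX3 and SESN1, and all 3 calls were lost without RCO replicate 1 among other arrays.

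**Figure D4:**
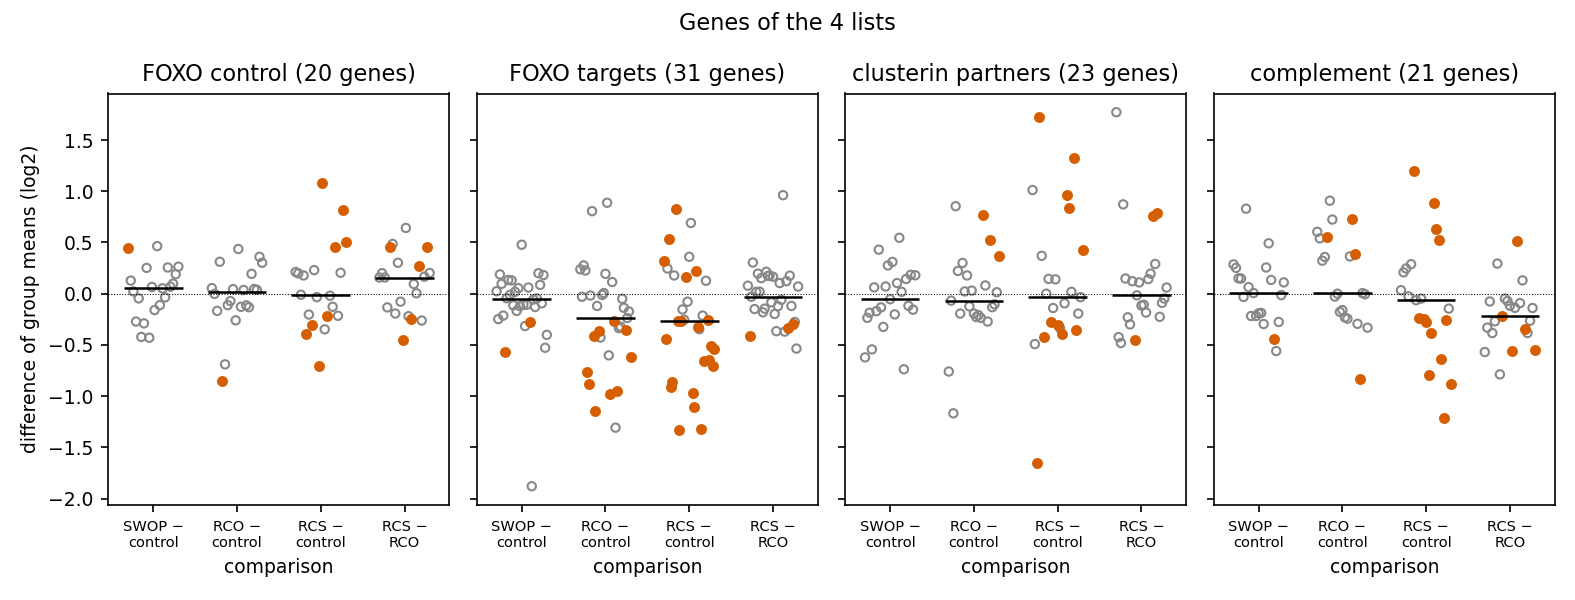
Differences of group means in log2 signal (vertical axis) for each measured gene of the 4 lists in 4 comparisons (horizontal axis); filled points passed at an adjusted p below 0.05, open points did not, and bars are list medians. Among FOXO targets the filled points in RCO minus control are all below 0, and in SWOP minus control 2 of 31 are filled.

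Of 30 receptors, partners and regulators of clusterin 23 were measured, and limma called 0 of them in SWOP (3 higher and 2 lower at an unadjusted p below 0.05). Over all genes 4.66% were called higher and 3.50% lower in SWOP. The list median there was −0.05, against 0.04 over all genes. In RCO 3 (13.0%) rose, against 11.3% of all genes, and 0 fell, against 4.26% (4 lower at an unadjusted p below 0.05). Those that rose included XRCC6, which encodes the DNA repair protein Ku70, at 0.36 ± 0.09 (SE; limma adjusted p = 0.013). In RCS 5 (21.7%) rose and 6 (26.1%) fell, against 28.8% and 25.7% of all genes, so both shares lay near those over all genes or below. Of those that fell, LRP2 and TTR were dim (mean log2 4.74 and 5.37). The growth factor TGFB1 rose by 0.84 ± 0.18 (adjusted p = 0.0012), with its other probe set also called. APOE, an apolipoprotein that shares receptors with clusterin, rose by 1.73 ± 0.44 (adjusted p = 0.0035) on its brighter probe set and stood at −0.23 on the other. The part of the macrophage and fibroblast markers, higher in the same RCS arrays, in TGFB1 and APOE was not tested. APOD, a further apolipoprotein picked after its value was seen, fell by 1.65 ± 0.44 (adjusted p = 0.0051). In RCS minus RCO, 2 (8.70%) were higher and 1 (4.35%) was lower, against 11.7% and 9.90% of all genes. The 1 lower was the haemoglobin-binding chaperone haptoglobin (HP), by 0.46 ± 0.11 (limma adjusted p = 0.011).

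Clusterin also restrains complement, of which 21 of 25 genes on the list were measured. In SWOP 1 (4.76%) fell and 0 rose, against 3.50% and 4.66% of all genes. The 1 called was CFB, a protease of the alternative pathway, at 7.43 ± 0.09 in control and 6.99 ± 0.07 in SWOP (SD, n = 5), with no overlap of arrays (fall of 0.44 ± 0.10, SE, limma adjusted p = 0.015). Its call held in every alternative, and its other probe set was at −0.28. In RCO 3 (14.3%) rose and 1 (4.76%) fell, against 11.3% and 4.26% of all genes. The membrane inhibitor CD59 rose by 0.39 ± 0.10 (adjusted p = 0.015), a call lost without RCO replicate 3. CFD, a protease made by adipocytes, fell by 0.83 ± 0.20 (adjusted p = 0.012). The 5 of 7 adipocyte markers measured, of which ADIPOQ was dim, had summed signals of 12.18 to 12.62 in RCO, within the control range of 11.91 to 12.81, but 2 of the 5 were called lower in RCO, and 3 in RCS (11.67 to 12.54). Their part in the CFD level was not tested. In RCS 4 complement genes (19.0%) rose and 9 (42.9%) fell, against 28.8% and 25.7% of all genes. Of those that fell, C5 and C8A were dim (mean log2 4.45 and 4.87). The inhibitors CD46 and CD59 rose by 0.88 ± 0.16 and 0.52 ± 0.10, and vitronectin, VTN, a further inhibitor of the attack complex, fell by 0.88 ± 0.18 (adjusted p from 0.00023 to 0.00056). In RCS minus RCO 1 was higher and 4 were lower (4.76% and 19.0%, against 11.7% and 9.90% of all genes). Each of these calls was lost in at least 1 alternative, and that of the dim C5 in 20 of 26.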

How the data were processed

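The table holds log2 signals made by the authors. RMA and MAS5 are named, without versions or roles, per the submitters' processing notes, and the log base was taken from the range of the values. Per the labels' protocols, Trizol RNA was labelled with biotin from an oligo(dT) primer. No further normalization was applied. Of 24123 probe sets, 124 control spots were left out. Symbols came from the platform's probe table (10069 probe sets with 1 symbol, 198 with several, 13732 with none; 9961 matched a RefSeq gene identifier), and the brightest probe set stood for a gene. A model of 4 group means over the 20 arrays (lmFit and eBayes of limma 3.58.1, R 4.3.3) left 16 residual degrees of freedom, with Benjamini-Hochberg adjustment over 23999 probe sets and calls at an adjusted p below 0.05. The fit was tested on simulated data. The number of arrays limits precision (median SE 0.111).

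Correlations within groups were tested by 100000 two-sided permutations within groups (numpy 2.4.6). For each list and comparison, up to 6 called members of smallest p could be named; alike genes were the 6 highest and 4 lowest r. The members, lists and alternatives were chosen with earlier results of these data known. Alternatives were quantile normalization, centring on the median, leaving out dim probe sets, array weights, a replicate block, fits of only the groups compared, the mean of both FOXO3 probe sets, RCO without replicates 2 and 3, and each array left out in turn.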

Additional observations from a re-analysis of the deposited data

Results flagged for a closer look

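CLU in RCS replicate 1 read 12.90 (log2), while the other 4 RCS arrays read 12.48 to 12.56. The gap to the nearest array was 0.81 of the range of the group, above Dixon's 95% limit of 0.71 for 5 samples. It was the only such array in the 12 groups of values checked (3 probe sets in 4 groups). By chance alone about 1 group in 20 is flagged, so 1 flag among 12 groups is no rare event.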

How the results depend on the processing

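The FOXO3 call in RCS held in every alternative. The FOXO3 call in RCO was lost without RCO replicates 2 and 3 together (−0.46), and the SWOP difference of FOXO3 was −0.40 as the mean of both probe sets; CLU has 1 probe set, so its mean gives no other value. With single arrays left out CLU ranged from −1.62 to −1.26 (SWOP minus control), −0.12 to 0.28 (RCO), 0.12 to 0.25 (RCS) and −0.08 to 0.32 (RCS minus RCO), and FOXO3 from −0.77 to −0.64, −0.55 to −0.43, −0.55 to −0.39 and −0.07 to 0.09. Counts of called probe sets moved more. SWOP minus control had 1716 calls, and 957 after quantile normalization, 5710 with array weights, 4091 with only both groups fitted, 2748 without RCO replicates 2 and 3, and 480 to 2428 with single arrays left out. RCO minus control had 2571, and 564 with only both groups fitted, 1135 without RCO replicates 2 and 3 and 1323 to 4251 with single arrays left out. RCS minus RCO had 4572, and 931, 9052 and 2053 to 7448 in the same settings; RCS minus control had 11404 (9439 to 12080). Centring arrays moved the share of higher calls in SWOP minus control from 42.1% to 57.2%. Of 58 calls of list genes named by the rule, 33 held in every alternative, most of them in RCS minus control (22 of 24). In SWOP minus control 1 of 4 held, in RCO minus control 8 of 14 and in RCS minus RCO 2 of 16. Replicate numbers were not taken as pairs, since r of same-numbered deviations was −0.18 to 0.16 in the comparisons with control. For RCS against RCO it was 0.078 to 0.44, above 0.1 in 4 of 5 pairs, a hint of pairing from the data that the labels do not give. The mean r with other numbers was −0.13 to −0.0066. Deviations cancel within a group, so that mean follows from the same-numbered r and adds no further support. With the number as a replicate block CLU and FOXO3 stood at −1.50 and −0.70 in SWOP and no call of theirs changed; calls in SWOP minus control were 2119, in RCO minus control 3061, in RCS minus control 11796 and in RCS minus RCO 5275.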

Other observations

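Genes that lie next to the members in the pig assembly Sscrofa11.1 were read from the RefSeq gene order, up to 3 protein-coding genes on each side, and 3 of 6 around CLU and 2 of 6 around FOXO3 were measured. GULO, which lies beside CLU, was lower in SWOP by −0.45 (limma adjusted p = 0.028) and in RCS by −0.67 (adjusted p = 0.00015), whereas CLU did not differ from control in RCS beyond its spread. EPHX2, the next gene, stood at 0.01 in SWOP (adjusted p = 0.99) and −0.96 in RCS (adjusted p = 0.00065), and CCDC25, on the other side, at 0.20 and 0.38 (adjusted p = 0.33 and 0.022). Near FOXO3, SNX3 stood at 0.09 in SWOP, 0.09 in RCO and 0.05 in RCS and was not called (adjusted p = 0.34 to 0.50). SESN1, a stress-induced gene and FOXO target that lies 2 genes from FOXO3, stood at −0.09 in SWOP (adjusted p = 0.58), −0.35 in RCO (adjusted p = 0.031) and −0.65 in RCS (adjusted p = 5.6e-05).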
